A study of Mus musculus with 38 samples.

Results

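Bulk RNA sequencing of the medial prefrontal cortex was compared between female control mice exposed to chronic variable stress (CVS) and female control mice left without stress (NS). The 10 libraries, 5 from CVS and 5 from NS mice, were chosen by their labels from the 38 of the study, and each came from a separate animal. All 10 mice carried SSTCre, in which the somatostatin promoter drives Cre recombinase, so the driver was present in stressed and unstressed animals alike. CVS lasted 21 days, and tissue was taken 24 hours after the last stressor. The labels give no ages. Female mutants (SSTCre:γ2f/f, 5 NS and 5 CVS), in which Cre acts on a floxed allele in somatostatin cells, and male controls (SSTCre, 5 NS and 6 CVS) were used for side-by-side values and for tests of whether the stress effect differed.

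The medial prefrontal cortex takes part in the control of the hormonal and behavioural response to stress. Glucocorticoids released during stress act on nuclear receptors that switch on a known group of genes, among them Fkbp5, Sgk1 and Tsc22d3, while synaptic activity switches on immediate early genes through calcium and MAP kinase signalling. Somatostatin interneurons, the cells in which Cre is made here, inhibit the dendrites of pyramidal cells and release peptides.

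Total counts ranged from 17.6 to 25.1 M per library, with means of 21.3 M in NS and 21.2 M in CVS. Markers of cortical excitatory neurons were abundant in every library, with Camk2a at 3815 to 4411 CPM (counts scaled to the size of the library) and Slc17a7 at 1691 to 2006 CPM, as were those of GABAergic neurons, astrocytes and oligodendrocytes. Ttr, the defining transcript of choroid plexus, had at most 1.63 CPM and Drd2, a striatal marker, at most 2.13 CPM. The sex label fitted the data: Xist was at 282.1 CPM or more and Ddx3y at 0 counts in each library. Replicates of a group were distinct libraries, since 0 of 20 pairs held identical counts.

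No gene passed the test for a stress effect. With edgeR's quasi-likelihood test and Benjamini-Hochberg adjustment, 0 of 16435 genes (0%) had an adjusted p under 0.05, and the smallest adjusted p was 0.107. At an unadjusted p under 0.05, 733 genes (4.46%) were higher and 700 (4.26%) lower in CVS, 8.72% in all. In 133 genes (0.809%) every CVS library was above every NS library, and in 103 genes (0.627%) every CVS library was below. DESeq2 called 28 genes and limma voom 0 in the same libraries. The count of 0 also changed when single libraries were left out: it was 1 without NS replicate 1, without CVS replicate 1 or without CVS replicate 4, 6 without CVS replicate 2 and 9 without CVS replicate 5. The standard error of the log2 fold change, derived from the test's F value, had a median of 0.09 over all genes. All values below are therefore given as measured differences, none of which passed the adjusted test.

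The 12 genes of smallest p that were higher in CVS had log2 fold changes of 0.17 to 0.61, with adjusted p values of 0.107 to 0.192 by edgeR. Tmsb10, which encodes an actin-binding thymosin, was at 139, 122, 128, 117 and 118 CPM in NS and 152, 137, 140.2, 154 and 135 CPM in CVS. The NS replicate 1 library lay inside the CVS range and the others below it, and the log2 fold change was 0.21 ± 0.04. Gadd45g, a stress-inducible gene of the growth arrest and DNA damage family, was at 8.79, 8.60, 8.19, 8.05 and 7.46 CPM in NS and 8.08, 13.4, 10.4, 13.7 and 10.3 CPM in CVS. CVS replicate 1 was among the NS values and the other CVS libraries were above all NS libraries, for a log2 fold change of 0.46 ± 0.11. Mapk7, which encodes the MAP kinase ERK5, was at 11.6, 12.7, 11.9, 11.5 and 12.1 CPM in NS and 15.1, 16.8, 15.02, 14.9 and 14.2 CPM in CVS. The groups did not overlap, and the log2 fold change was 0.35 ± 0.09. Cacna1g, the gene of the T-type calcium channel Cav3.1, was at 111, 111, 114, 122 and 116 CPM in NS and 133, 134, 133, 134 and 121 CPM in CVS. CVS replicate 5 was just inside the NS range while the others were above it, and the log2 fold change was 0.19 ± 0.04.

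The same direction was seen for 4 genes with roles in trafficking, translation and mitochondria. Use1, a SNARE protein of the endoplasmic reticulum, had a log2 fold change of 0.22 ± 0.05. For Ctif, a factor of translation on capped RNA, it was 0.17 ± 0.04. Nipsnap1, a mitochondrial protein, had 0.19 ± 0.05. The 2 groups did not overlap for any of these 3 genes. Ndufa7, a subunit of respiratory complex I outside the 12, was at 41.7, 40.5, 41.7, 36.6 and 40.3 CPM in NS and 47.003, 46.8, 45.3, 48.3 and 44.02 CPM in CVS, again with no overlap, and its log2 fold change was 0.21 ± 0.05. The remaining members of the 12 (Tbc1d9b, Ccdc74a, Vill, Gpank1 and Ankrd24) all had groups that did not overlap, with log2 fold changes of 0.26, 0.32, 0.61, 0.40 and 0.30.

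The 12 genes of smallest p that were lower in CVS had log2 fold changes of -0.76 to -0.21, with adjusted p values of 0.150 to 0.239 by edgeR. Aqp4, the water channel of astrocyte endfeet, was at 93.5, 98.8, 101, 92.3 and 101 CPM in NS and 71.7, 75.8, 82.4, 96.8 and 78.5 CPM in CVS. CVS replicate 4 lay within the NS range and the other CVS libraries below it, for a log2 fold change of -0.26 ± 0.06. Without CVS replicate 4 the difference was -0.34 with an adjusted p of 0.00248 by edgeR. Over the 24 alternatives the adjusted p of Aqp4 ran from 0.000139 to 0.465, and 3 of them called it: the fit without that library, DESeq2, and edgeR without a filter on low counts. Srsf10, a splicing factor with an arginine and serine rich domain, was at 58.6, 52.3, 54.7, 55.9 and 54.3 CPM in NS and 44.3, 44.97, 51.7, 44.3 and 47.99 CPM in CVS. Its groups did not overlap, and the log2 fold change was -0.24 ± 0.05. Kcnv1, a modifying subunit of voltage-gated potassium channels, was at 126, 139, 133, 138 and 144 CPM in NS and 109, 115, 107, 119 and 132 CPM in CVS. CVS replicate 5 was within the NS range, the other CVS libraries were below it, and the log2 fold change was -0.22 ± 0.05.

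**Figure D1:**
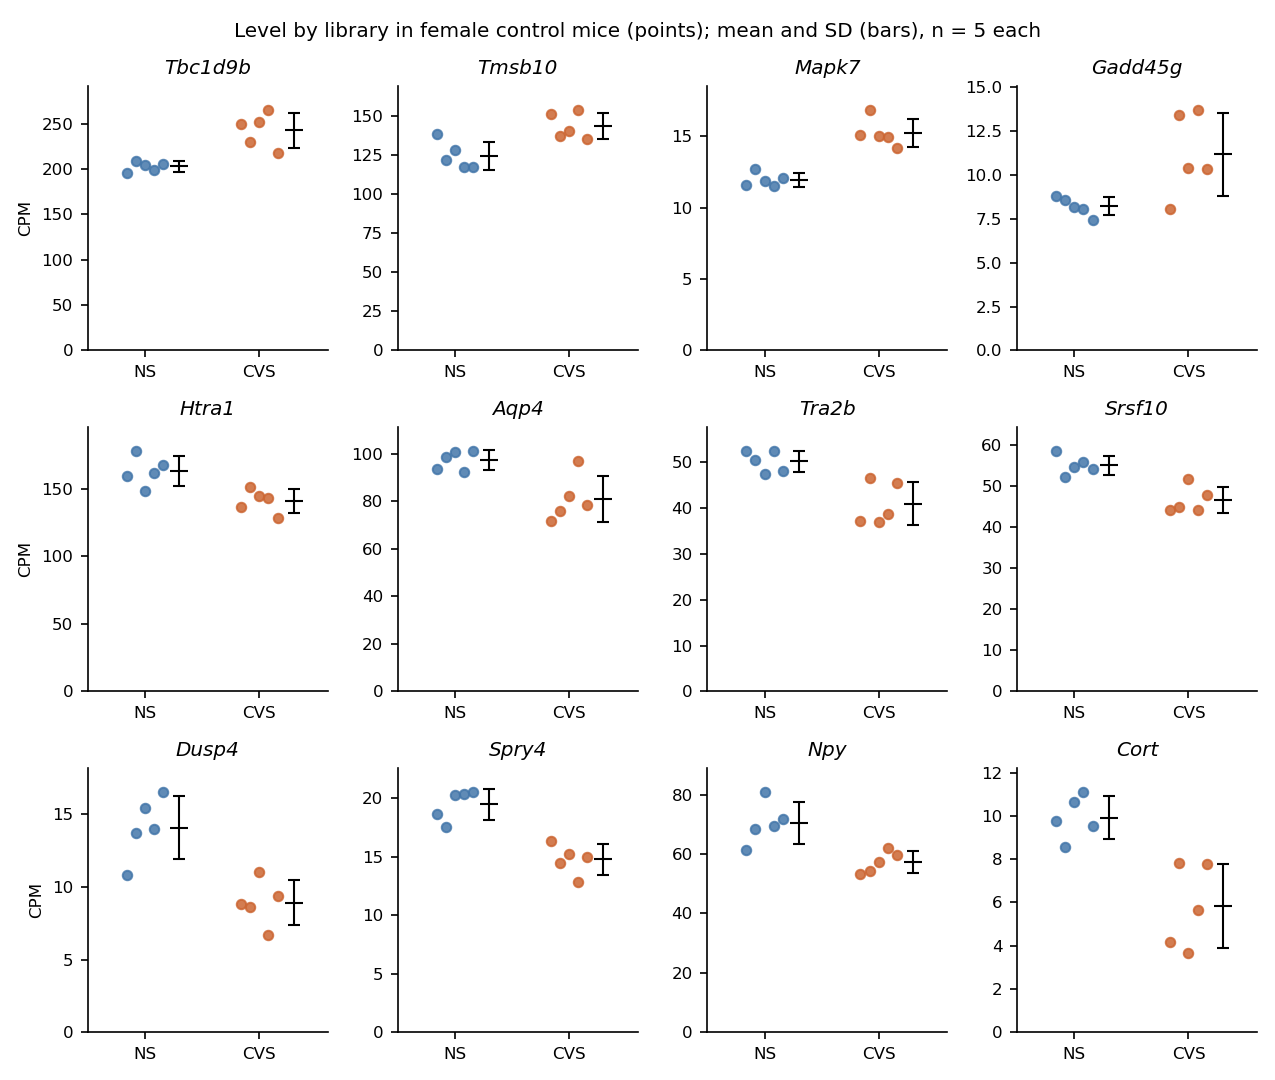
Level of 12 genes in CPM (y axis, from 0) in each of the 5 NS and 5 CVS libraries of female controls, with the mean and SD beside the points. NS and CVS points do not overlap for Tbc1d9b, Mapk7, Tra2b, Srsf10, Spry4 and Cort, and overlap by 1 or a few libraries for the others.

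Among the less abundant of these genes, Abi3bp, which encodes an extracellular matrix protein, was at 8.68, 11.4, 13.6, 12.1 and 11.1 CPM in NS and 5.64, 9.41, 6.99, 7.05 and 5.998 CPM in CVS. CVS replicate 2 was above the lowest NS library and the other CVS libraries were below it, with a log2 fold change of -0.69 ± 0.15. Osmr, the receptor of oncostatin M, was at 2.997, 2.37, 3.48, 2.67 and 3.06 CPM in NS and 1.71, 1.28, 1.63, 2.24 and 2.08 CPM in CVS, without overlap, and its log2 fold change was -0.70 ± 0.18. Acer2, an alkaline ceramidase, had a mean of 5.93 CPM in NS and 3.81 CPM in CVS and a log2 fold change of -0.63 ± 0.16. Ttll5, which adds glutamate chains to tubulin, had -0.23 ± 0.06. Htra1, Tra2b and Dusp14 are given with their groups below.

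Among the 24 genes of smallest p, the largest difference was that of a peptide of inhibitory neurons. Neuropeptides are released by subsets of interneurons, and cortistatin (Cort) and neuropeptide Y (Npy) are made in cells that overlap with the somatostatin class. Cort was at 9.77, 8.55, 10.6, 11.1 and 9.53 CPM in NS and 4.19, 7.84, 3.67, 5.65 and 7.78 CPM in CVS. Every CVS library was below every NS library, and the log2 fold change was -0.76 ± 0.18. Npy was at 61.5, 68.3, 80.8, 69.6 and 71.9 CPM in NS and 53.4, 54.2, 57.3, 61.99 and 59.7 CPM in CVS. Only CVS replicate 4, at 62.0 CPM, exceeded the lowest NS library, and the log2 fold change was -0.30 ± 0.07. Somatostatin itself (Sst) was at 142, 109, 125, 119.9 and 118 CPM in NS and 126, 119, 116, 132 and 129.7 CPM in CVS. Its groups overlapped throughout, with a log2 fold change of 0.02 ± 0.06 and a 95% interval of -0.11 to 0.15.

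Other peptides were higher or lower. Pdyn, the precursor of dynorphins, was at 30.9, 27.9, 27.4, 27.9 and 31.005 CPM in NS and 32.8, 31.9, 34.9, 37.9 and 32.2 CPM in CVS. The groups did not overlap, and the log2 fold change was 0.23 ± 0.07. Tac2, the precursor of neurokinin B, had a log2 fold change of 0.30 ± 0.12, and Tac1, the precursor of substance P, had -0.26 ± 0.12. Tac1 was at 16.8 CPM in CVS replicate 5, within the NS range, and at 10.2 to 11.8 CPM in the other CVS libraries. Of 18 tested peptide genes, 7 were higher and 11 lower in CVS, 3 (16.7%, against 4.46% of all genes) and 5 (27.8%, against 4.26%) of them at an unadjusted p under 0.05. The median log2 fold change was -0.05 against 0.00 over all genes, and it went to -0.02 without CVS replicate 3, -0.03 without CVS replicate 2 and -0.09 without CVS replicate 5. Of 16 markers of somatostatin interneurons, 9 were higher and 7 lower, with a median of 0.01, and of 20 markers of other GABAergic interneurons 10 were higher and 10 lower, with a median of 0.00.

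Genes switched on by neuronal activity were lower in CVS for the larger part. Of 38 tested members of the list, 28 had a negative and 10 a positive log2 fold change, with a median of -0.18. At an unadjusted p under 0.05, 10 were lower (26.3%, against 4.26% of all genes) and 3 higher (7.89%, against 4.46%), and 0 passed the adjusted test. The lower members included genes of the feedback on MAP kinases. Dusp4, a phosphatase that inactivates MAP kinases, was at 10.8, 13.7, 15.4, 14.02 and 16.5 CPM in NS and 8.85, 8.64, 11.1, 6.73 and 9.35 CPM in CVS. Only CVS replicate 3 exceeded the lowest NS library, and the log2 fold change was -0.67 ± 0.17. Spry4, a Sprouty inhibitor of receptor tyrosine kinase signalling, was at 18.7, 17.6, 20.3, 20.3 and 20.5 CPM in NS and 16.4, 14.4, 15.3, 12.8 and 14.996 CPM in CVS. The groups did not overlap, with a log2 fold change of -0.40 ± 0.11. Dusp14, another phosphatase of this family, was at 72.04, 72.6, 82.4, 73.6 and 75.8 CPM in NS and 63.2, 62.3, 61.5, 58.7 and 70.05 CPM in CVS, also without overlap, and its log2 fold change was -0.26 ± 0.06.

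Further members of these families were Spry2 (-0.23, no overlap), Dusp5 (-0.40) and Dusp6 (-0.29), each with an unadjusted p under 0.05, while Dusp1 had a log2 fold change of 0.02. Bdnf, the gene of brain-derived neurotrophic factor, was at 44.1, 41.5, 50.3, 41.8 and 42.7 CPM in NS and 36.96, 33.1, 30.6, 42.7 and 38.4 CPM in CVS. CVS replicate 4 was within the NS range and the other CVS libraries below it, for a log2 fold change of -0.27 ± 0.10. Among the transcription factors, Egr1 had a log2 fold change of -0.27 and Klf10 -0.45, each at an unadjusted p under 0.05. The 3 members that were higher at that level were Gadd45g, Jun (0.23) and Jund (0.10). Fos was at 23.2, 17.8, 26.96, 25.3 and 15.3 CPM in NS and 23.3, 17.6, 23.8, 16.7 and 21.6 CPM in CVS, so the libraries of each group spread widely, and its log2 fold change was -0.08 ± 0.25. Npas4, a transcription factor specific to depolarized neurons, was at 8.37, 15.9, 14.8, 19.7 and 8.90 CPM in NS and 16.98, 21.3, 18.6, 15.9 and 20.1 CPM in CVS. Its log2 fold change was 0.45 ± 0.24, with 5 of 5 CVS libraries above the NS mean. The median of the list stayed between -0.26 and -0.13 over 24 other settings and left-out libraries. By library, the median deviation of the 38 genes from their NS mean was between -0.11 and 0.10 in NS and between -0.30 and -0.06 in CVS, so the groups overlapped.

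**Figure D2:**
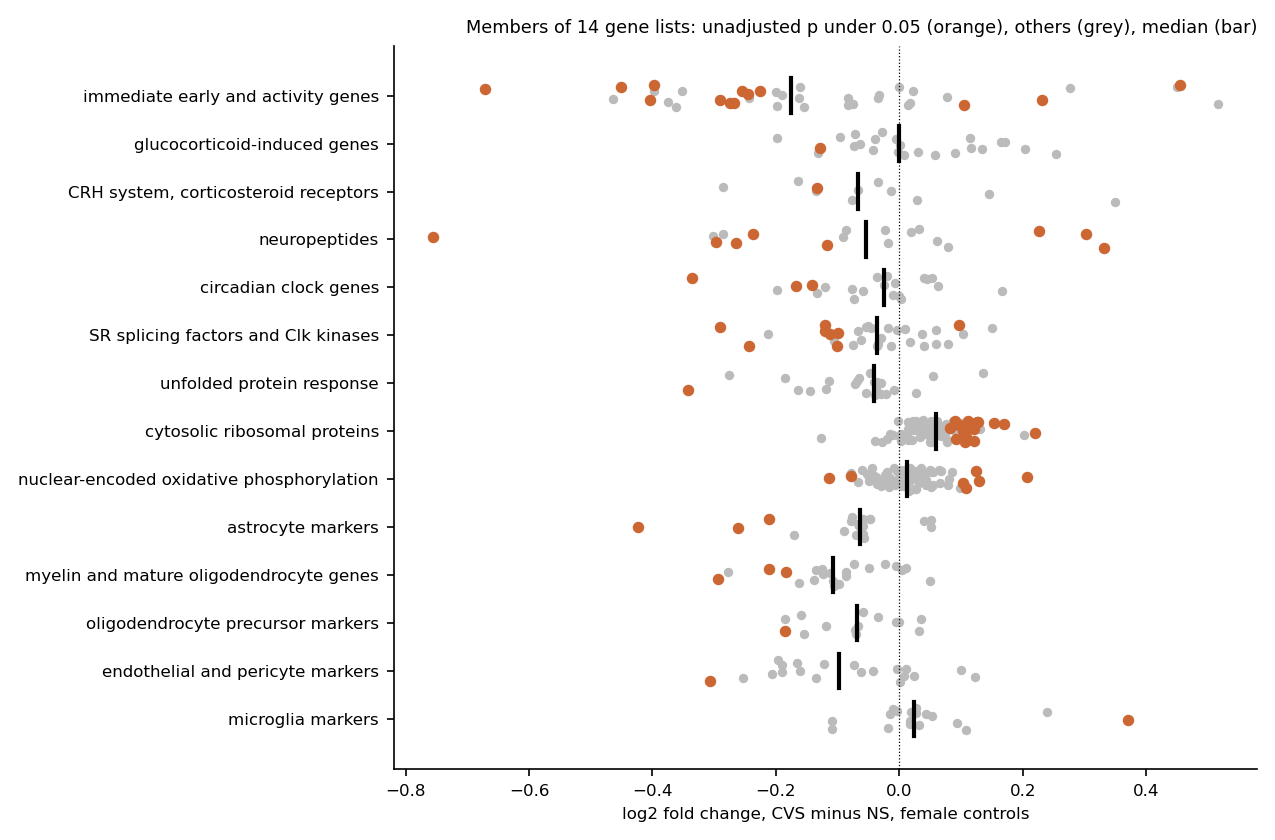
Log2 fold change, CVS minus NS, of each tested member of 14 gene lists in female controls (x axis), with members at an unadjusted p under 0.05 in orange and the list's median as a bar. The activity genes are spread widest with a median of -0.18, and the ribosomal protein genes lie in a narrow band with a median of 0.06.

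The median stress effect of the activity genes was positive in female mutants and negative in female and male controls. Counts of list members are not counts of animals, and medians by library are given for female controls only. In female mutants, which share no library with the controls, 32 of the 38 genes had a positive stress effect, with a median of 0.14, 5 at an unadjusted p under 0.05 higher (4.19% of all genes were) and 0 lower (3.72% of all genes). In male controls, 37 of the 38 had a negative effect, with a median of -0.36, 12 at an unadjusted p under 0.05 lower (3.92% of all genes were) and 0 higher (3.65% of all genes). Over all genes the medians were 0.00 in each of the 3 sets of mice. All female titles begin with F and all male titles with Y. The labels do not say whether these series were separate cohorts, so sex and series cannot be told apart. The difference of the stress effect between female mutants and controls had an unadjusted p under 0.05 in 9 of the 38 genes (23.7%), against 658 of 16435 genes (4.004%). For Spry4 this difference, mutants minus controls, was 0.53 ± 0.15, and for Dusp14 0.27 ± 0.08. The adjusted test called 0 genes (0%) for this difference, with a smallest adjusted p of 1.00 by edgeR, and 0 of the 38.

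**Figure D3:**
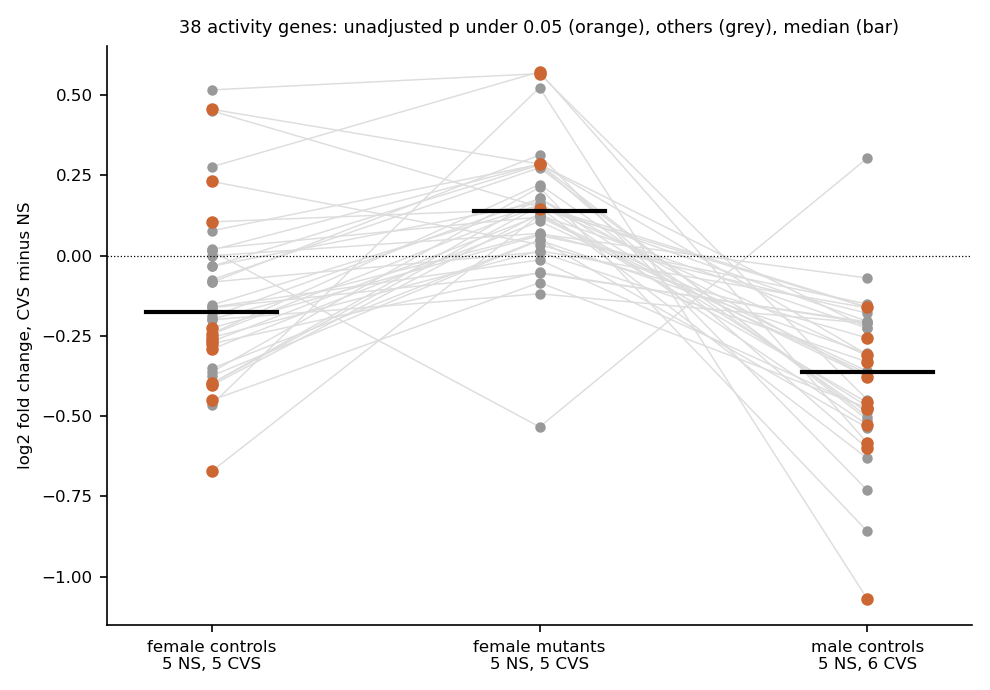
Stress effect (log2 fold change, CVS minus NS, y axis) of the 38 activity genes in female controls, female mutants and male controls, with lines joining a gene and bars at the median. The medians are -0.18, 0.14 and -0.36.

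Targets of the glucocorticoid receptor showed no common direction. Of 24 tested genes, 12 were higher and 12 lower, with a median log2 fold change of 0.00. At an unadjusted p under 0.05, 1 was lower (4.17%, against 4.26% of all genes) and 0 higher (0%, against 4.46%). The lower gene was Klf9, a transcription factor, at -0.13 ± 0.06. Fkbp5, the co-chaperone that restrains the receptor, was at 36.3, 35.4, 30.6, 33.8 and 32.3 CPM in NS and 29.1, 50.8, 32.4, 28.7 and 33.7 CPM in CVS. Sgk1, a kinase that regulates ion transport, was at 34.6, 39.4, 33.004, 35.7 and 37.6 CPM in NS and 31.6, 54.8, 33.99, 35.9 and 38.1 CPM in CVS. Tsc22d3, also known as GILZ, was at 50.03, 61.7, 48.2, 54.8 and 56.8 CPM in NS and 39.3, 80.6, 48.7, 44.8 and 52.2 CPM in CVS. In each of these 3 genes CVS replicate 2 was the highest of the 10 libraries, and the other CVS libraries were within or below the NS range.

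That library had the highest level for 11 of the 24 genes, while each of the other 9 libraries was highest for 0 to 3. The share of all tested genes for which it was highest is not given here. CVS replicate 2 also had the largest share of counts in the most abundant gene ID, 7.83% against 4.85% to 7.38% in the other 9. The 11 included Ddit4, at 48.9 CPM in CVS replicate 2 against 26.4 to 33.7 CPM in the other 9, and Hif3a, at 9.41 CPM against 2.74 to 6.10 CPM. Per1 was not among them: it was at 102, 117, 113, 121 and 117 CPM in NS and 111, 101, 113, 82.2 and 91.4 CPM in CVS. The median deviation of the 24 genes from their NS mean was 0.25 in CVS replicate 2 and between -0.13 and -0.05 in the other CVS libraries. The log2 fold change with all libraries was 0.06 ± 0.15 for Fkbp5, 0.11 ± 0.13 for Sgk1 and -0.03 ± 0.16 for Tsc22d3. Without CVS replicate 2 these became -0.12, -0.04 and -0.23, and the median of the list became -0.08. None of these values passed the test (adjusted p of 0.6002 or more for Tsc22d3 over its settings by edgeR).

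**Figure D4:**
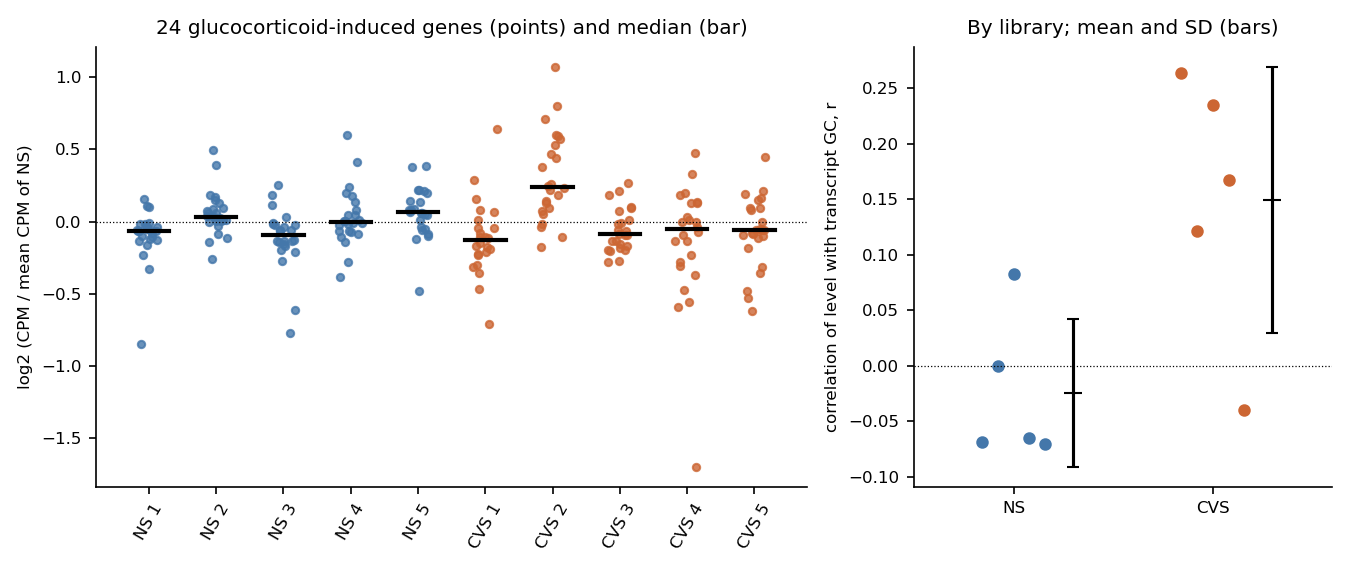
Left, log2 ratio of the CPM of 24 glucocorticoid-induced genes to their NS mean in each library, with medians as bars. Right, correlation across genes of a library's level deviations with transcript GC content, with mean and SD. CVS replicate 2 has a median of about 0.25 on the left, and 4 of 5 CVS libraries are above all NS libraries on the right.

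Receptors and ligands of the stress hormone system were also examined. Nr3c1, the glucocorticoid receptor, was at 103, 109.9, 108, 105 and 112 CPM in NS and 92.7, 85.8, 111, 102 and 98.5 CPM in CVS, and its log2 fold change was -0.13 ± 0.06. CVS replicate 3 was within the NS range and the other CVS libraries were below it. Nr3c2, the mineralocorticoid receptor, had -0.14 ± 0.07. Crh, corticotropin-releasing hormone, was at 5.74, 5.05, 6.23, 5.34 and 5.80 CPM in NS and 4.24, 3.79, 5.36, 5.21 and 4.52 CPM in CVS and had a log2 fold change of -0.29 ± 0.15. Its receptor Crhr1 had 0.15 ± 0.08. Of 11 tested genes of this system, 3 were higher and 8 lower, with a median of -0.07. At an unadjusted p under 0.05, 1 was lower (9.09%, against 4.26% of all genes) and 0 higher.

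Clock genes were examined since glucocorticoids and activity both act on them. In the clock, transcription factors bind E-boxes and drive their own inhibitors, the Per and Cry genes. Of 21 tested members, 15 were lower and 6 higher, with a median of -0.02, and 3 were lower at an unadjusted p under 0.05 (14.3%, against 4.26%). That median was -0.01 without NS replicate 4 or CVS replicate 4, -0.04 without NS replicate 3 and -0.05 without CVS replicate 1 or 5. Bhlhe40, a repressor that competes for E-boxes and also responds to activity, was at 161, 174, 189.5, 181 and 182 CPM in NS and 146, 151, 140.3, 128 and 137 CPM in CVS. Its groups did not overlap, and the log2 fold change was -0.34 ± 0.10. With the 10 control libraries alone in the fit, the difference was -0.34 with an adjusted p of 0.00260 by edgeR. In the other alternatives the adjusted p of Bhlhe40 ran from 0.149, by DESeq2, to 0.610, by edgeR. Cry1, a clock repressor, was at 24.1, 25.4, 25.1, 25.8 and 23.7 CPM in NS and 22.5, 20.2, 22.5, 22.5 and 22.9 CPM in CVS, without overlap, with a log2 fold change of -0.17 ± 0.06. Hlf, a transcription factor of the clock's output, had -0.14 ± 0.05.

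The bases before the start sites of 4 of these genes are shown because each holds an element known to be bound by clock factors, by factors that respond to cyclic AMP and calcium, or by the glucocorticoid receptor. They are the 250 bases upstream of the RefSeq start in GRCm38.p6, read 5′ to 3′ on the gene's strand. Capitals mark an E-box (CACGTG) in Cry1 (chr10:85185055-85185304, minus strand) and Gadd45g (chr13:51846425-51846674, plus strand), a cyclic AMP response element (TGACGTCA) in Hlf (chr11:90390918-90391167, minus strand) and a glucocorticoid response element in Sgk1 (chr10:21993640-21993889, plus strand, 1 of 6 listed starts). The Sgk1 stretch also holds an E-box near its 5′ end, left in lower case.
Cry1: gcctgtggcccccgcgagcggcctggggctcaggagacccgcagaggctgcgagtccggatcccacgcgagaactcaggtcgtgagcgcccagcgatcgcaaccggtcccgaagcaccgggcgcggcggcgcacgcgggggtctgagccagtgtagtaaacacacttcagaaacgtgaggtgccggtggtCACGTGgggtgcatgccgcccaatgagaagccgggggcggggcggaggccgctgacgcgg
Gadd45g: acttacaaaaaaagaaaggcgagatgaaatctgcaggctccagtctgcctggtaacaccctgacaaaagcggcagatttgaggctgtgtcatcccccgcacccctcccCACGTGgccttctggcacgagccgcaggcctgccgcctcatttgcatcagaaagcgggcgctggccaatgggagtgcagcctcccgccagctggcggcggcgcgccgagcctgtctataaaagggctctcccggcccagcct
Hlf: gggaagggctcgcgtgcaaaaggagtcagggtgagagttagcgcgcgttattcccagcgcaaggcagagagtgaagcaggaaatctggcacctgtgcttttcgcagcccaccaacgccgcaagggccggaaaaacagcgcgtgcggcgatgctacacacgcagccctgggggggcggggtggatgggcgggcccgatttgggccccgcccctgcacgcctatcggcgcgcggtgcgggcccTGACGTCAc
Sgk1: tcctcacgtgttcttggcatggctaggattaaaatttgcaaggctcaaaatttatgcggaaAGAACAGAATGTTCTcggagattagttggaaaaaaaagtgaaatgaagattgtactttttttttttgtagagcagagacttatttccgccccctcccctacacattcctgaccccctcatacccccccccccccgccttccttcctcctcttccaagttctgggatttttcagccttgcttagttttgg

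The E-box begins 60 bases before the start in Cry1 and 142 bases before it in Gadd45g, the cyclic AMP response element 9 bases before it in Hlf, and the glucocorticoid response element 189 bases before it in Sgk1. A promoter window of 300 bases (250 before and 50 after the start) was matched by symbol for 11785 tested genes, and each motif was searched on both strands. An E-box was present for 11.2% of these genes, for 7 of 28 activity genes with a window and for 5 of 18 clock genes. The cyclic AMP response element was present for 3.44% of all genes, 3 of 28 activity genes and 4 of 14 peptide genes, Sst among them. The full glucocorticoid response element was found for 1 gene, Sgk1, out of 11785. The D-box (TTATGTAA) was present for 0.755% of all genes and 1 of 18 clock genes, and the heat shock element for 0.586% and for 4 of 19 heat shock protein genes. Among the 3 clock genes lower at an unadjusted p under 0.05, no window was matched for Bhlhe40.

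Markers of astrocytes, of the oligodendrocyte lineage and of vessels were mostly lower in CVS. Astrocytes clear transmitters and water, and oligodendrocytes form myelin. Of 20 astrocyte markers 17 were lower, with a median log2 fold change of -0.06, and 3 were lower at an unadjusted p under 0.05 (15%, against 4.26% of all genes). By library, the median deviation of the 20 genes was between -0.19 and 0.03 in CVS and between -0.06 and 0.09 in NS, and the median log2 fold change was -0.03 without CVS replicate 1, the lowest of them. Htra1, a secreted serine protease, was at 159.6, 178, 149, 162 and 168 CPM in NS and 136, 151, 145, 143 and 128 CPM in CVS, and CVS replicate 2 alone exceeded the lowest NS library. Its log2 fold change was -0.21 ± 0.05. Gfap, the intermediate filament of astrocytes, was at 90.6, 60.2, 61.1, 68.8 and 74.6 CPM in NS and 45.04, 45.4, 54.1, 57.2 and 63.1 CPM in CVS. CVS replicate 5 was above 2 NS libraries, and the log2 fold change was -0.42 ± 0.13. In bulk tissue, fewer cells of a type and less RNA per cell cannot be told apart.

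Of 22 myelin and mature oligodendrocyte genes 19 were lower, with a median of -0.11 and 3 at an unadjusted p under 0.05 (13.6%, against 4.26% of all genes). Cldn11, a tight junction protein of myelin, was at 38.6, 43.97, 43.4, 36.9 and 44.4 CPM in NS and 34.8, 38.2, 33.8, 37.5 and 34.3 CPM in CVS and had a log2 fold change of -0.21 ± 0.06. CVS replicates 2 and 4 reached into the NS range. By library, the median deviation of the 22 genes was between -0.17 and -0.08 in CVS and between -0.09 and 0.09 in NS, where NS replicates 1 and 4 were at -0.09. Of 14 markers of oligodendrocyte precursors 12 were lower, with a median of -0.07, which went to -0.03 without NS replicate 5. At an unadjusted p under 0.05, 1 was lower (7.14%, against 4.26% of all genes) and 0 higher. Endothelial and pericyte markers were lower for 14 of 20, with a median of -0.10, which went to -0.01 without NS replicate 5 and to -0.20 without CVS replicate 4. Of these 20, 1 was lower at an unadjusted p under 0.05 (5%, against 4.26% of all genes) and 0 higher. That gene was Mfsd2a, a lipid transporter of the blood-brain barrier, with a log2 fold change of -0.31 ± 0.11. Of 18 microglia markers 12 were higher, with a median of 0.02. At an unadjusted p under 0.05, 1 was higher (5.56%, against 4.46% of all genes) and 0 lower. That gene was Aif1, which encodes IBA1, at 0.37 ± 0.15.

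Among genes of RNA splicing, 21 of 31 SR proteins and Clk kinases were lower, with a median of -0.04. By library, their median deviation was between -0.09 and -0.08 in 3 CVS libraries, 0.02 in CVS replicate 1 and 0.10 in CVS replicate 3, against -0.06 to 0.07 in NS, so CVS libraries lay below, within and above the NS range. The median log2 fold change was -0.01 without CVS replicate 5, -0.07 without CVS replicate 3 and -0.06 without CVS replicate 1 or NS replicate 2. At an unadjusted p under 0.05, 7 were lower (22.6%, against 4.26%) and 1 higher (3.23%). Tra2b, an SR-like activator of exon inclusion, was at 52.4, 50.5, 47.5, 52.4 and 47.99 CPM in NS and 37.1, 46.6, 36.9, 38.6 and 45.4 CPM in CVS. Its groups did not overlap, and the log2 fold change was -0.29 ± 0.06. Srsf10 is given above, and Srsf1, the founding member of the family, had -0.12 ± 0.04. The transcripts of this list have a median GC content of 43.9%, against 49.7% over all genes. When a smooth function of GC content was taken out of each library, 3 were lower and 1 higher at an unadjusted p under 0.05, against 3.62% and 3.82% of all genes. The difference for Tra2b was then -0.24 and for Srsf10 -0.20. Mbnl2, a regulator of alternative splicing outside this list, was at 178, 186, 169, 185 and 189 CPM in NS and 155, 166, 167, 167 and 165 CPM in CVS, without overlap, with a log2 fold change of -0.15 ± 0.04.

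Cytosolic ribosomal protein genes were higher in CVS by small amounts. Of 80 tested, 73 had a positive log2 fold change, with a median of 0.06, and 18 were higher at an unadjusted p under 0.05 (22.5%, against 4.46%) and 0 lower. With the GC correction the median was 0.05 and 17 were higher, and with transcript length corrected as well the median was 0.03, as it was without NS replicate 4. By library, the median deviation of the 80 genes was between -0.09 and 0.06 in NS and between 0.02 and 0.13 in CVS. The same genes were higher in female mutants for 78 of 80, with a median of 0.11, and lower in male controls for 68 of 80, with a median of -0.05. Reads of these genes may be shared with near-identical copies. Of 76 nuclear genes of oxidative phosphorylation 46 were higher, with a median of 0.01.

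Lists of synaptic genes had medians between -0.05 and 0.02. Of 13 subunits of GABA-A receptors 10 were lower and 3 higher, with a median of -0.05. At an unadjusted p under 0.05 there were 0, against 8.72% of all genes in either direction. Of 30 glutamate receptor and excitatory synapse genes 19 were lower, with a median of -0.02. At an unadjusted p under 0.05, 3 were lower (10%, against 4.26% of all genes) and 2 higher (6.67%, against 4.46%). Grin2d, an NMDA receptor subunit found in interneurons, was at 18.5, 17.8, 18.5, 18.6 and 18.5 CPM in NS and 25.1, 20.4, 26.3, 22.96 and 16.5 CPM in CVS. Here 4 CVS libraries were above all NS libraries and CVS replicate 5 below them, and the log2 fold change was 0.27 ± 0.09. Of 29 receptors for monoamines and acetylcholine 17 were higher, with a median of 0.02. At an unadjusted p under 0.05, 4 were higher (13.8%, against 4.46% of all genes) and 2 lower (6.90%, against 4.26%). Adra2a, the alpha-2A adrenergic receptor, was at 14.9, 15.9, 12.1, 15.04 and 14.2 CPM in NS and 8.39, 12.9, 10.1, 11.7 and 12.2 CPM in CVS. CVS replicates 2 and 5 were just above the lowest NS library, and the log2 fold change was -0.38 ± 0.11. Genes of the unfolded protein response were lower for 22 of 25, with a median of -0.04. At an unadjusted p under 0.05, 1 was lower (4%, against 4.26% of all genes) and 0 higher. By library, the median deviation of the 25 genes was -0.13 in CVS replicate 2 and -0.10 in CVS replicate 5. It was between -0.00045 and 0.05 in the other CVS libraries, against -0.06 to 0.08 in NS. In serine synthesis, Psat1 had a log2 fold change of -0.17 ± 0.05 and Aldh1l2, of mitochondrial folate metabolism, -0.57 ± 0.19.

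The direction of the 24 genes of smallest p was compared with other mice. In female mutants all 12 higher genes again had a positive stress effect, with a median of 0.10, and 10 of the 12 lower genes a negative one, with a median of -0.12. Over all genes, 59.7% had the same sign in mutants as in controls. With the GC correction these were 12 of 12, 10 of 12 and 55.6%, and the mutant medians were 0.07 and -0.11. The median transcript GC content was 57.7% in the 12 higher and 47.2% in the 12 lower genes, against 49.7% over all genes. The mean correlation of level deviations with transcript GC content was -0.20 in mutant NS and 0.05 in mutant CVS (unadjusted exact permutation p = 0.0397). The most abundant gene ID took 4.80% of counts in mutant NS and 6.22% in mutant CVS (unadjusted exact permutation p = 0.0159). The part of such library differences in the shared signs was not tested. Each of the 24 effects was smaller in size in mutants than in the controls by which the genes had been picked, for example 0.14 against 0.17 for Ctif and 0.26 against 0.35 for Mapk7. The exceptions in sign were Dusp14 and Ttll5, with mutant effects of 0.01 and 0.00. Cort had a mutant effect of -0.29, Abi3bp -0.51 and Aqp4 -0.12. In male controls 9 of the 12 higher and 9 of the 12 lower genes had the same sign, against 51.8% of all genes.

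**Figure D5:**
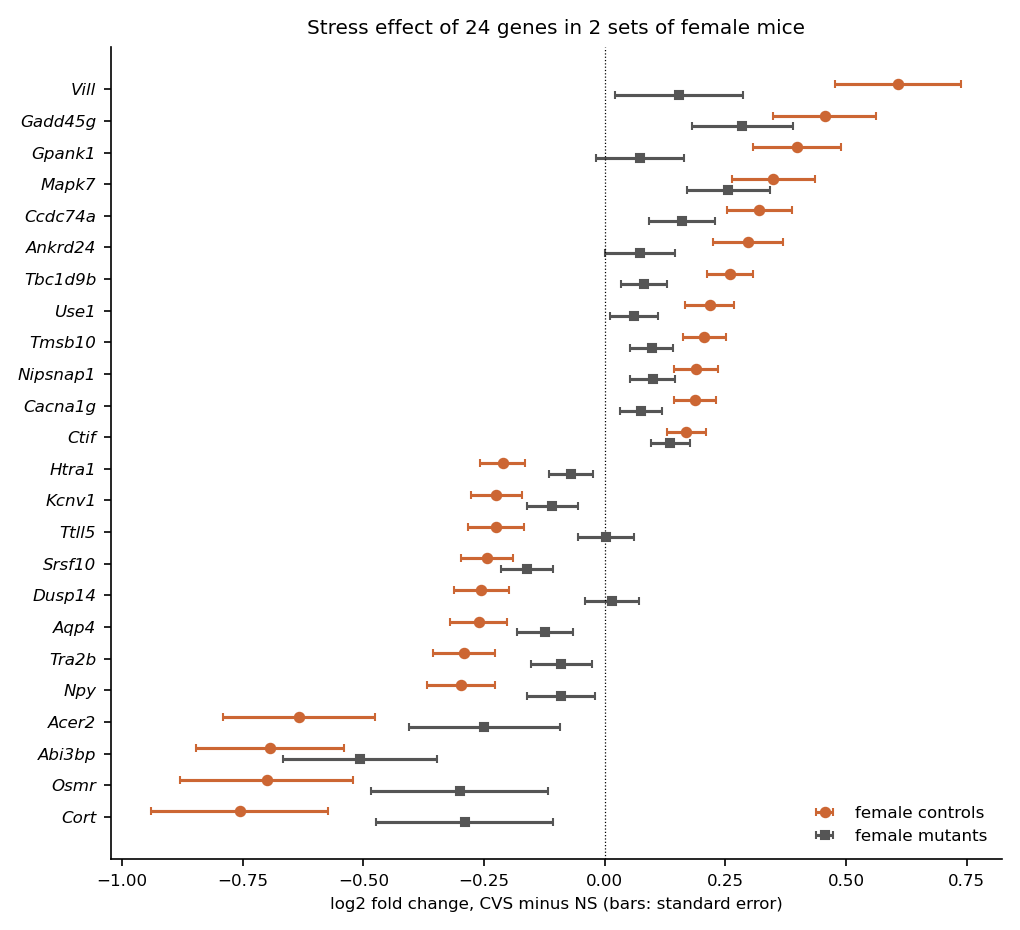
Stress effect (log2 fold change, CVS minus NS, x axis) of the 24 genes of smallest p in female controls (circles) and in female mutants (squares), with standard errors. Of the squares, 22 lie on the side of 0 where the circle lies.

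No gene passed the test of a different stress effect between female and male controls, where 0 of 17671 genes (0%) were called and 1271 (7.19%) had an unadjusted p under 0.05. The smallest adjusted p by edgeR was 0.507. Sex coincides with the series of the titles, so a difference of sex cannot be told apart from one of series here. Female effects were above male effects by 0.76 ± 0.18 for Gadd45g and 0.26 ± 0.07 for Jund, and below them by -0.25 ± 0.06 for Mbnl2. For the difference between female mutants and controls, the smallest p values belonged to Dmrta2 (0.80 ± 0.22), Syt12 (0.27 ± 0.08) and Spry4 on the higher side, and to Coq3 (-0.41 ± 0.11), Col6a2 (-0.65 ± 0.17) and Khnyn (-0.34 ± 0.10) on the lower side.

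Of 13 measures of the libraries, 0 differed between NS and CVS in the adjusted exact permutation test and 3 had an unadjusted p under 0.05. The correlation of level deviations with transcript GC content was -0.02 ± 0.07 (SD, n = 5) in NS and 0.15 ± 0.12 (SD, n = 5) in CVS (two-sided exact permutation p = 0.0317, 0.138 adjusted over 13 measures). Genes higher at an unadjusted p under 0.05 had a median GC content of 53.8% and lower ones 45.7%. The most abundant gene ID, ENSMUSG00000119584, which has no symbol in the table used, took 5.31 ± 0.23% of counts in NS and 6.55 ± 1.23% in CVS (SD, n = 5 each, exact permutation p = 0.0952, 0.248 adjusted). Summed striatal markers were at 346.5 ± 9.13 CPM in NS and 332.6 ± 6.87 CPM in CVS (SD, n = 5 each), where exact permutation gave p = 0.00794, the smallest it can give, and 0.103 after adjustment. Summed choroid plexus and ependymal markers were at 10.4 ± 0.55 CPM in NS and 9.32 ± 0.59 CPM in CVS (exact permutation p = 0.0159, 0.103 adjusted). With the GC correction edgeR called 0 genes, and 627 were higher and 595 lower at an unadjusted p under 0.05. With the share of the most abundant gene ID as a term edgeR also called 0 genes, and 857 were higher and 897 lower at that level. The part of the striatal and choroid plexus markers in the gene values was not tested.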

How the data were processed

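The deposited table holds unnormalized whole-number read counts for each gene; per the submitters' processing notes, reads were trimmed with fastp 0.23.2, aligned with STAR 2.7.10b to GRCm39 and counted with featureCounts. The annotation release and strand setting were not stated. The 57010 gene IDs were matched to symbols (52029 matched), transcript GC content and length through GENCODE vM21 (GRCm38), and promoter sequences came from RefSeq (GRCm38.p6).

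Libraries were grouped by their labels; replicate numbers follow accession order and pair nothing. A quasi-likelihood model of edgeR 4.0.16 (R 4.3.3, robust, TMM, filterByExpr with a minimum count of 10 and total of 15) was fitted to the 20 female libraries in 4 groups, and a model of 8 groups and 38 libraries gave the female against male test. P values were adjusted by Benjamini-Hochberg over all tested genes, threshold 0.05. CPM use TMM factors, except those of marker and technical sums, which use raw totals; standard errors are the absolute log2 fold change over the square root of F. Library measures were compared with two-sided exact permutation tests over 252 splits. Alternatives used DESeq2 1.42.0, limma 3.58.1 and sva 3.50.0, other filters and scalings, and left-out libraries; GC and length corrections, and left-out libraries for the difference tests, were chosen after seeing the data. Figures were drawn with matplotlib 3.10.9. The models were tested on simulated data.

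The genes in the text are, in each direction, the 12 of smallest p, then up to 4 members of a described list, and fixed stress genes (Sst, Crh, Crhr1, Nr3c1, Fkbp5, Sgk1, Tsc22d3, Fos, Npas4 and Bdnf), without predicted genes. Further list members (Spry2, Dusp1, Dusp5, Dusp6, Egr1, Klf10, Jun, Jund, Hif3a) were named after their values were seen. The genes, lists and members were chosen with earlier results of these data known. Values of a few list members are not reported here.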

Additional observations from a re-analysis of the deposited data

Results flagged for a closer look

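At the cutoff used, about 1 in 20 independent groups of 5 libraries would hold 1 far from the other 4 by chance. The groups checked share libraries, and many of their genes were picked by small p, so that share is only a guide. Of the 218 groups checked, 11 (5.05%) held 1 library far from the other 4. CVS replicate 2 accounted for 5 of them: it was high for Sgk1 (54.8 CPM, others 31.6 to 38.1) and Fkbp5 (50.8 CPM, others 28.7 to 33.7), and low for Cry1 (20.2 CPM, others 22.5 to 22.9), Crhr1 (27.5 CPM, others 33.1 to 33.7) and Itgam, a microglial integrin (3.62 CPM, others 4.93 to 5.24). CVS replicate 5 was low for Cacna1g (120.6 CPM, others 132.6 to 134.3) and high for Tac1 (16.8 CPM, others 10.2 to 11.8). CVS replicate 1 was low for Mbnl2 (155.3 CPM, others 165.1 to 166.7).

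In the NS group, replicate 4 was low for Ndufa7 (36.6 CPM, others 40.3 to 41.7) and high for the summed striatal markers (362.0 CPM, others 339.7 to 345.6). NS replicate 2 was low for Grin2d (17.8 CPM, others 18.5 to 18.6), a gap that is small against the CVS range of that gene.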

How the results depend on the processing

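The count of 0 genes called for stress became 2 with the control libraries alone (Bhlhe40 and Tbc1d9b), 28 with DESeq2, 51 without a filter on low counts, 4 without the animals numbered below 200 (Spry4, Dusp4, Gadd45g and Plk3) and 1 with GC and length corrections (Npy, -0.35), and it ranged from 0 to 9 when single libraries were left out. Without the filter, 1246 genes were higher and 1290 lower at an unadjusted p under 0.05, and 5 were called for the difference between mutants and controls. The cause of these shifts was not tested. The 24 genes of smallest p kept their direction in 576 of 576 alternative values. These alternatives reuse the libraries by which the genes were picked, so they are no separate test of direction.

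Signs turned for differences near 0. Gria2 became 0.00826 with GC and length corrections. Sst became -0.00847 with the GC correction and -0.0426 with length as well, and ranged from -0.0201 to 0.0751 over left-out libraries. Tsc22d3 became 0.0268 with a surrogate variable and 0.0886 without the animals numbered below 200, with a range of -0.232 to 0.0616 over left-out libraries. Fkbp5 became -0.0944 with the share of the most abundant ID in the model and ranged from -0.122 to 0.124, Sgk1 from -0.0436 to 0.1801 and Fos from -0.188 to 0.00684. Over left-out libraries, CVS minus NS ranged from -0.192 to 0.0132 percentage points for mitochondrial transcripts, from -0.000721 to 0.00246 for hemoglobin, from -143.4 to 56.9 for genes with at least 10 counts, from -1.03 to 0.838 M for total counts, from -21.5 to 0.998 CPM for meningeal and from -8.16 to 24.5 CPM for blood markers. No paired analysis was possible because the labels give the groups no shared replicate numbers. At 17.6 to 25.1 M counts per library, the median standard error of 0.09 limits what differences could pass.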
